A study of Homo sapiens with 6 samples.

Results

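Genes of steroid and xenobiotic metabolising enzymes were followed across 6 microarrays of C4-2, an established human line of castration-resistant prostate cancer obtained from LNCaP cells. They were chosen by gene symbol, by a rule that holds no measured value but was written with earlier results of these data known: protein-coding genes whose symbol marks them as UDP-glucuronosyltransferases and their UDP-sugar suppliers, hydroxysteroid dehydrogenases, steroid 5-alpha-reductases, aldo-keto reductases of family 1, sulfotransferases, cytochromes P450, glutathione transferases, quinone reductases or ABCC efflux pumps, with HSD17B7 and CYP51A1 left out. Of 148 such genes in the gene table, 33 had a named probeset, out of 14812 genes tested. These 33 were 14 hydroxysteroid dehydrogenases, 16 glutathione transferases, and UGP2, UGDH and UGT8. The other families, among them the P450s, the aldo-keto reductases, the 5-alpha-reductases and the glucuronosyltransferases that conjugate androgens, are not analysed here, so the genes described cover hydroxysteroid oxidation and reduction, glutathione conjugation and UDP-sugar supply rather than the whole of the label.

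The arrays, Affymetrix Human Gene ST, formed 3 groups of 2 samples that the labels call biological replicates. The NU7441 cells received this inhibitor of the DNA-PKcs kinase at 1 µM for 24 h. The DNA-PKcs knockdown cells were transfected with an siRNA pool against PRKDC, the gene of DNA-PKcs, for 96 h, and the control cells were treated with DMSO. All groups were C4-2 cells grown in medium that contained hormones. The protocol also names a control siRNA pool, but the labels of the control arrays give only DMSO. Effects of transfection and of loss of DNA-PKcs therefore cannot be told apart in the knockdown comparisons. No time is given for the control arrays, so a difference in time cannot be told apart from treatment in either comparison with control. The cells are 1 line and the knockdown is transient. PRKDC itself is not analysed here, so the knockdown group rests on its labels.

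Enzymes of this kind make lipophilic steroids and foreign compounds either more or less active and more soluble. Hydroxysteroid dehydrogenases interconvert alcohol and ketone groups on steroids, and several of them act mainly on fatty acyl chains or retinoids. Glutathione transferases attach glutathione to reactive compounds, and glucuronosyltransferases attach glucuronic acid taken from UDP-glucuronic acid. In prostate cells, oxidation and glucuronidation are known routes by which androgens lose activity, and silencing of GSTP1 is a well known mark of prostate cancer.

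The deposited values are linear intensities, compared here on the log2 scale. No value lay below 16. Whether 16 is an amount added to every value or a lower limit is not stated, so fold changes of genes near it have no settled size. The median over all probesets was 24.6 and 26.0 with NU7441, 28.4 and 27.6 with knockdown and 31.5 and 31.6 in control. Of the 33 genes, 17 lay above their array's probeset median on all 6 arrays, 11 on some of them and 5 on none. Intensities of different genes are not set against each other, since probes differ in brightness. All 7 measured luminal prostate markers of 15 listed, KLK2, KLK3, KLK4, FOLH1, HOXB13, KRT8 and KRT18, lay above the probeset median on every array. In RNA of whole cultures, fewer cells that carry a transcript and less of it per cell cannot be told apart.

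The comparison of NU7441 with control addressed the response to inhibition of the kinase. UGP2, UGDH and UGT8 all fell, by factors of 2.51, 1.84 and 1.58 as deposited, with the call of UGT8 lost after median centring. The hydroxysteroid dehydrogenases moved in both directions, with 4 of 14 lower (HSD11B1L, HSD17B6, HSD17B4 and HSD17B2) and 4 higher (HSD17B8, HSD11B2, HSD17B11 and HSD17B10). Of the 16 glutathione transferases, 2 rose (GSTA4 and GSTM3) and 0 fell at an adjusted p under 0.05 in limma's moderated test, with 3 higher and 1 lower at an unadjusted p under 0.05. In total 7 of 33 genes were lower and 6 higher, which is 21.2% and 18.2%, where 22.4% of all tested genes were called lower and 10.8% higher (33.2% called in all). The median log2 fold change was −0.24 over the 33 genes and −0.23 over all genes. Over all genes, 67.4% of calls were lower as deposited, 49.0% after quantile normalization and 32.1% after median centring, so the balance of directions depends on the scaling. By family the median was −0.88 for the 3 UDP-sugar and UGT8 genes, −0.14 for the dehydrogenases and −0.15 for the transferases.

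**Figure D1:**
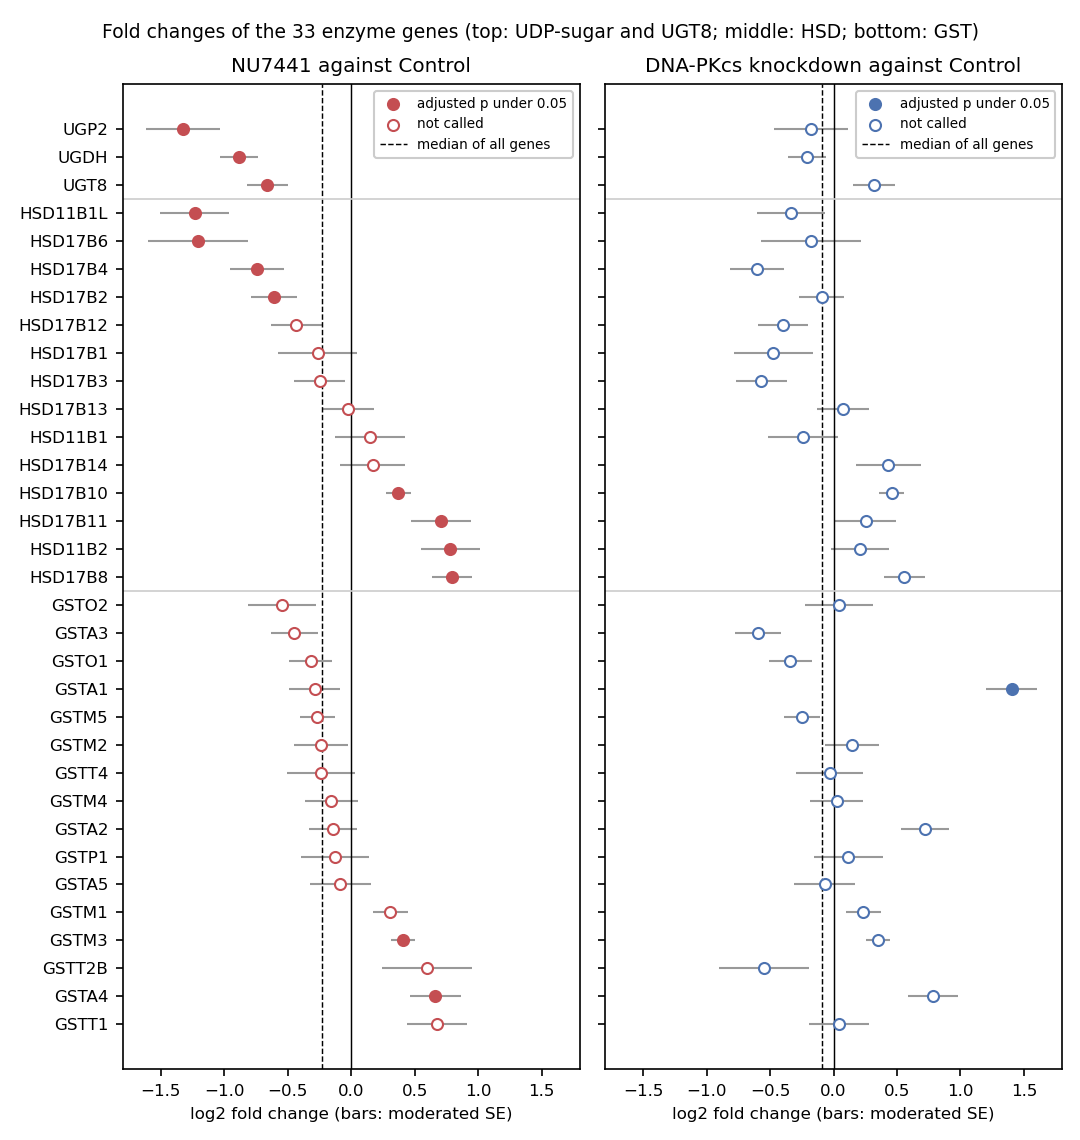
Log2 fold changes of the 33 genes for NU7441 against control (left) and DNA-PKcs knockdown against control (right), one row per gene, with bars of 1 moderated standard error, filled points for an adjusted p under 0.05 and a dashed line at the median of all tested genes. With NU7441, 7 genes are filled on the left of 0 and 6 on the right, and with knockdown GSTA1 alone is filled. Both panels use the same 2 control arrays.

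UGP2 makes UDP-glucose and UGDH oxidises it to UDP-glucuronic acid, the sugar donor of glucuronidation and of proteoglycan chains. UGP2 had intensities of 27.4 and 49.9 in NU7441 cells, 83.0 and 80.6 in knockdown cells and 91.4 and 93.7 in control cells. Both NU7441 arrays lay well below the other 4, although they differed from each other more than the arrays of either other group did. The log2 fold change against control was −1.33 ± 0.29 (moderated SE, n = 2 per group, limma adjusted p = 0.00994). Over 14 alternative settings the change of UGP2 ranged from −1.90, with the offset removed, to −0.89, so its size is not settled. UGDH had 155 and 173 in NU7441 cells, 255 and 267 in knockdown cells and 308 and 296 in control cells, and its log2 fold change with NU7441 was −0.88 ± 0.15 (limma adjusted p = 0.00343). Its groups did not overlap, with knockdown between the others. The antisense transcript UGDH-AS1, which is no member of the set, was at 30.1 and 31.5 in NU7441 cells, 29.2 and 31.7 in knockdown cells and 47.2 and 42.3 in control cells, with limma adjusted p of 0.0917 and 0.216 for the 2 treatments against control. UGT8 adds galactose to ceramide and is the 1 measured gene of the glucuronosyltransferase superfamily. It had 112 and 123 in NU7441 cells, 235 and 229 in knockdown cells and 186 and 186 in control cells. NU7441 lowered it by 0.66 ± 0.16 on the log2 scale (limma adjusted p = 0.0148), and the knockdown arrays lay above both other groups. After median centring the change of UGT8 was −0.34 (adjusted p = 0.144).

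The promoters of these 3 genes are shown because the genes fell together. They span 250 bases before and 50 after the RefSeq start on GRCh38.p14, at chr2:63840719-63841018 on the plus strand for UGP2, chr4:39527390-39527689 on the minus strand for UGDH and chr4:114598152-114598451 on the plus strand for UGT8. Capitals mark GCGTG on either strand, the core letters bound by the AHR-ARNT dimer of xenobiotic sensing.
UGP2: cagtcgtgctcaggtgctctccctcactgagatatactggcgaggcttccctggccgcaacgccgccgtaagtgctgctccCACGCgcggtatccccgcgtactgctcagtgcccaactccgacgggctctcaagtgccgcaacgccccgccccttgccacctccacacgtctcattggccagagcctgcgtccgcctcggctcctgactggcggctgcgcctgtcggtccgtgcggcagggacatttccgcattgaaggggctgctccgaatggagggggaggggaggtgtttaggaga
UGDH: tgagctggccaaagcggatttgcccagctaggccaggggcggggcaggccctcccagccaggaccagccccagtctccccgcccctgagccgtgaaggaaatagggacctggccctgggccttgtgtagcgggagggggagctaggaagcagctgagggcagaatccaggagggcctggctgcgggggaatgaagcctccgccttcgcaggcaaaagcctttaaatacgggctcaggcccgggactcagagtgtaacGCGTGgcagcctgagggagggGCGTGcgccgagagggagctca
UGT8: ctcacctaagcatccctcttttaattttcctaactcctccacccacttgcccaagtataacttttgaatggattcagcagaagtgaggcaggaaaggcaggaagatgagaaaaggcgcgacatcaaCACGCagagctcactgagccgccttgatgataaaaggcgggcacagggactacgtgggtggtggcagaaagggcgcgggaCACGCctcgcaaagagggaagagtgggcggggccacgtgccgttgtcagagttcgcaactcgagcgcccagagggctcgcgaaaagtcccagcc
GCGTG occurred once in UGP2 and 2 times each in UGDH and UGT8. Promoters were matched for 25 of the 33 genes, and 10 of them (40.0%) held GCGTG, against 36.3% of all 27305 promoters of this length. It was present in 3 of the 5 matched promoters of genes that fell with NU7441 and in 4 of the 5 of genes that rose. TGACNNNGC, the core of the antioxidant response element, was searched on both strands and found in 5 of 25 (20.0%) against 13.6% of all promoters, namely those of GSTA4, GSTM1, GSTM5, GSTO1 and GSTP1. AGAACA, a half-site of the androgen and glucocorticoid receptors, was in 1 of 25 (HSD17B13) against 14.9% of all. No match of one motif overlapped another, and a match describes letters in the window only.

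Among the dehydrogenases that fell, HSD17B6, which oxidises androstanediol to dihydrotestosterone and also acts on retinol, had 21.7 and 57.4 in NU7441 cells, 73.0 and 71.3 in knockdown cells and 78.1 and 85.0 in control cells. The groups did not overlap, but 1 NU7441 array was close to 16 and the other was not. Its log2 fold change was −1.21 ± 0.39 (limma adjusted p = 0.0407), and −0.51 (adjusted p = 0.0581) without NU7441 replicate 1 or −1.91 without NU7441 replicate 2. Its call held in 5 of 14 alternative settings. HSD17B4, a peroxisomal enzyme of fatty acid oxidation that also oxidises estradiol, had 197 and 312 in NU7441 cells, 306 and 244 in knockdown cells and 402 and 428 in control cells. Both treated groups lay below control and overlapped each other. With NU7441 it was lower by −0.74 ± 0.21 (limma adjusted p = 0.0271), or −0.41 without NU7441 replicate 1. Its call held in 7 of 14 alternative settings and was lost after median centring (−0.42, adjusted p = 0.136). HSD17B2, which oxidises testosterone and estradiol to weaker ketones, was at 16 and 18 in NU7441 cells, 25.5 and 23.1 in knockdown cells and 28.7 and 23.4 in control cells. These values lie near 16, below the probeset median of their arrays, so the size of the change is not settled, and the call (−0.61 ± 0.18, limma adjusted p = 0.0288) was lost after quantile normalization (adjusted p = 0.120) and after median centring. HSD11B1L, a relative of HSD11B1, had 17.2 and 20.4 in NU7441 cells, 27.7 and 43.9 in knockdown cells and 40.2 and 48.2 in control cells (−1.23 ± 0.27, limma adjusted p = 0.00963).

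The dehydrogenases that rose include both steroid enzymes and mitochondrial ones. HSD17B8, a subunit of a ketoacyl reductase of mitochondrial fatty acid synthesis, had 261 and 255 in NU7441 cells, 217 and 221 in knockdown cells and 137 and 161 in control cells. The 3 groups did not overlap, and NU7441 was highest (0.80 ± 0.16, limma adjusted p = 0.00685). Its 6 probesets gave log2 fold changes from 0.79 to 0.80. Their intensities were nearly the same on every array, so they are not separate readings of the rise. HSD11B2, which inactivates cortisol, had 162 and 143 in NU7441 cells, 83.9 and 125 in knockdown cells and 89.9 and 87.1 in control cells, so knockdown overlapped control and NU7441 lay above both (0.78 ± 0.23, limma adjusted p = 0.0287). HSD17B11, a lipid droplet protein that oxidises androstanediol at carbon 17, had 94.2 and 71.0 in NU7441 cells, 61.9 and 57.5 in knockdown cells and 52.5 and 47.8 in control cells (0.71 ± 0.24, limma adjusted p = 0.0467). It held its call in 6 of 14 alternative settings. HSD17B10, a mitochondrial dehydrogenase that is also a subunit of mitochondrial RNase P, had 879 and 868 in NU7441 cells, 892 and 970 in knockdown cells and 635 and 721 in control cells (0.37 ± 0.10 with NU7441, limma adjusted p = 0.0206).

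The other 6 dehydrogenases did not pass the test. HSD17B12, a reductase of fatty acid elongation, was the nearest to doing so among the lower ones, with 92.5 and 95.8 in NU7441 cells, 86.8 and 107 in knockdown cells and 128 and 126 in control cells (−0.43 ± 0.20, limma adjusted p = 0.121). HSD17B1, HSD17B3, HSD17B13, HSD17B14 and HSD11B1 had log2 fold changes between −0.27 and 0.17, with intensities of 16 to 54.0 on all 6 arrays. The 2 probesets of HSD17B1, which reduces estrone to estradiol, gave −0.27 and −0.04 with NU7441 and −0.48 and 0.24 with knockdown, so they disagreed in sign for knockdown. HSD17B11 and HSD17B13 are next to each other in the gene table, and HSD17B13 was at −0.02 ± 0.20 with NU7441 while its neighbour rose. HSD17B13 lay near 16 and below the probeset median on all 6 arrays, so its value says little about a change.

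Of the glutathione transferases, GSTA4, which conjugates the lipid peroxidation product hydroxynonenal, had 128 and 114 in NU7441 cells, 125 and 139 in knockdown cells and 81.2 and 72.1 in control cells. Both treated groups lay above control and overlapped each other (0.66 ± 0.20 with NU7441, limma adjusted p = 0.0298). GSTM3 had 759 and 801 in NU7441 cells, 767 and 736 in knockdown cells and 592 and 584 in control cells, the same arrangement (0.41 ± 0.09 with NU7441, limma adjusted p = 0.0120). GSTT1 had 51.5 and 62.0 in NU7441 cells, 36.2 and 36.5 in knockdown cells and 34.7 and 36.0 in control cells. It missed the threshold as deposited (0.68 ± 0.23, limma adjusted p = 0.0511) and passed it after quantile normalization (0.95, adjusted p = 0.0121). GSTT2B, of the same theta class, had 61.8 and 75.5 in NU7441 cells, 45.8 and 20.8 in knockdown cells and 43.8 and 46.6 in control cells, with a wide error (0.60 ± 0.35, limma adjusted p = 0.214). The pseudogene GSTT2, left out of the set, had 18.2 and 34.3 in NU7441 cells and 33.9 and 28.9 in control cells. These groups overlapped (−0.33 ± 0.31, limma adjusted p = 0.432). GSTM1 had 365 and 436 in NU7441 cells, 371 and 388 in knockdown cells and 305 and 341 in control cells (0.31 ± 0.14, limma adjusted p = 0.115). It passed after median centring (0.63, adjusted p = 0.00764) and without NU7441 replicate 1 (0.44, adjusted p = 0.0148). Members of the mu and alpha classes resemble each other, and a probe for one may also bind transcripts of another.

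GSTP1 was at 23.6 and 33.2 in NU7441 cells, 38.6 and 28.5 in knockdown cells and 34.6 and 27.0 in control cells. All groups overlapped, the values lay around the probeset medians of the arrays, and its log2 fold change with NU7441 was −0.13 ± 0.27 (limma adjusted p = 0.741). GSTO1, an omega class thioltransferase, had 215 and 285 in NU7441 cells, 233 and 255 in knockdown cells and 297 and 321 in control cells (−0.32 ± 0.17, limma adjusted p = 0.171). The other transferases, GSTA3, GSTA5, GSTM2, GSTM4, GSTM5, GSTO2 and GSTT4, had log2 fold changes from −0.54 for GSTO2 to −0.09 for GSTA5 with NU7441 and intensities of 16 to 45.5 on all arrays.

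**Figure D2:**
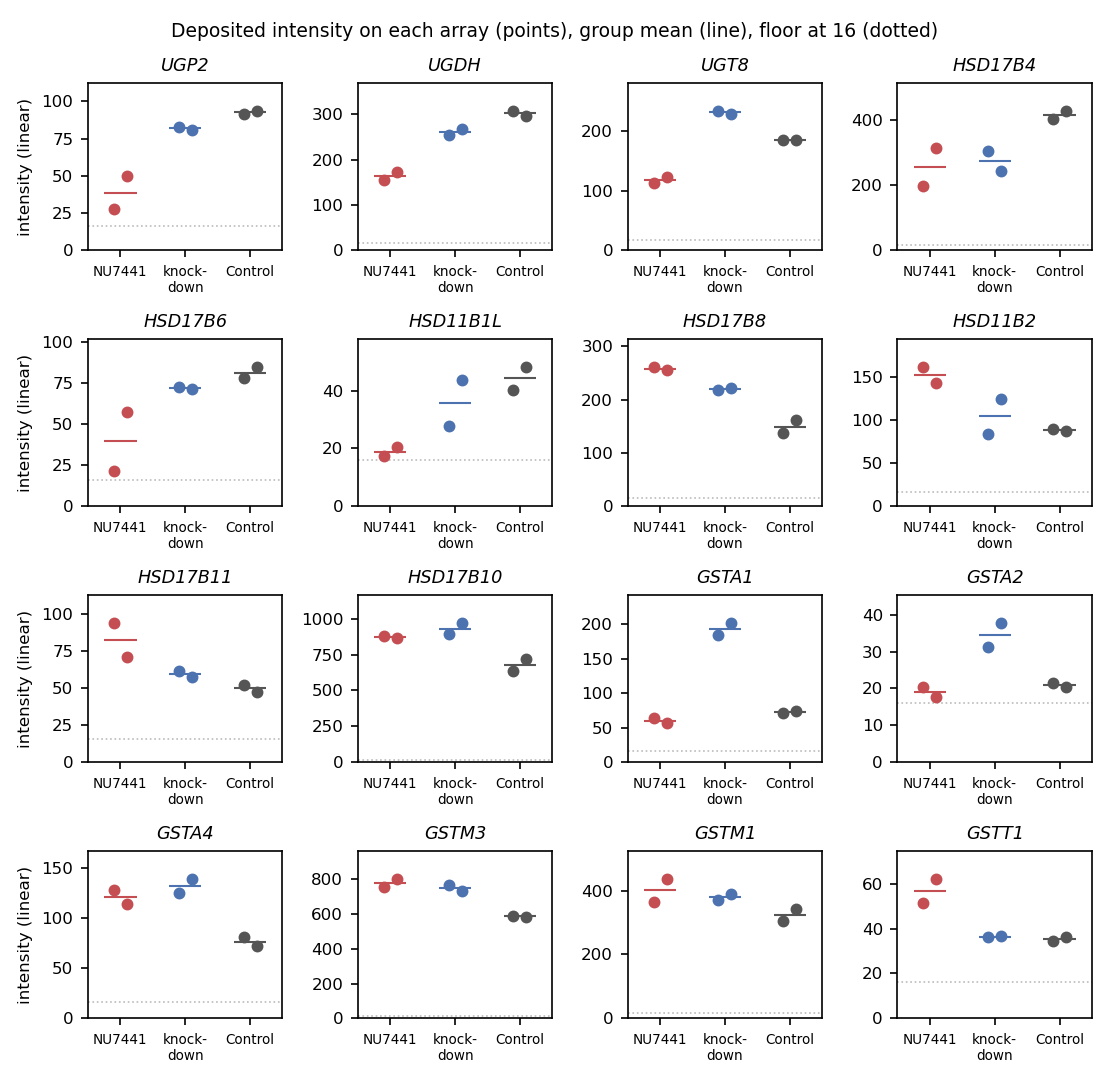
Deposited linear intensity of 16 genes on each array, with NU7441 left, knockdown in the middle and control right in every panel, points for arrays, short lines for group means and a dotted line at 16, the lowest value. UGP2, UGDH, UGT8, HSD17B6, HSD11B1L and GSTA1 are lowest in NU7441 cells, and GSTA1, GSTA2, UGT8 and HSD17B10 are highest in knockdown cells. GSTA4, GSTM3, HSD17B10, HSD17B8, HSD17B11, GSTM1 and GSTT1 are above control in both treated groups.

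All 13 called genes kept their direction when quantile normalized, median centred or stripped of the offset, with 12, 9 and 11 of them still called. Under median centring 3 of the 33 genes were called lower and 8 higher, where 1413 and 2983 of all 14812 genes were. The calls rested on both control arrays, since 0 of the 13 passed without control replicate 1 and 2 (UGDH and HSD17B8) without control replicate 2, with unchanged direction in each. Without these arrays 1051 and 868 of all genes were called, in place of 4917, and the median SE was 0.33 in place of 0.22. UGT8, as an example of a lost call, was at −0.66 in both of these fits. NU7441 replicate 1 had 3797 probesets within 0.01 of 16, against 1471 on replicate 2. It lay farther from control than replicate 2 for 12 of the 13 genes and for 68.5% of all 4917 called genes. Its part in the calls was not tested beyond leaving it out. All 13 genes then kept their direction and some lost their call. That fit leaves NU7441 with 1 array, so it takes no spread from this group and cannot show that the calls are robust to replicate 1.

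**Figure D3:**
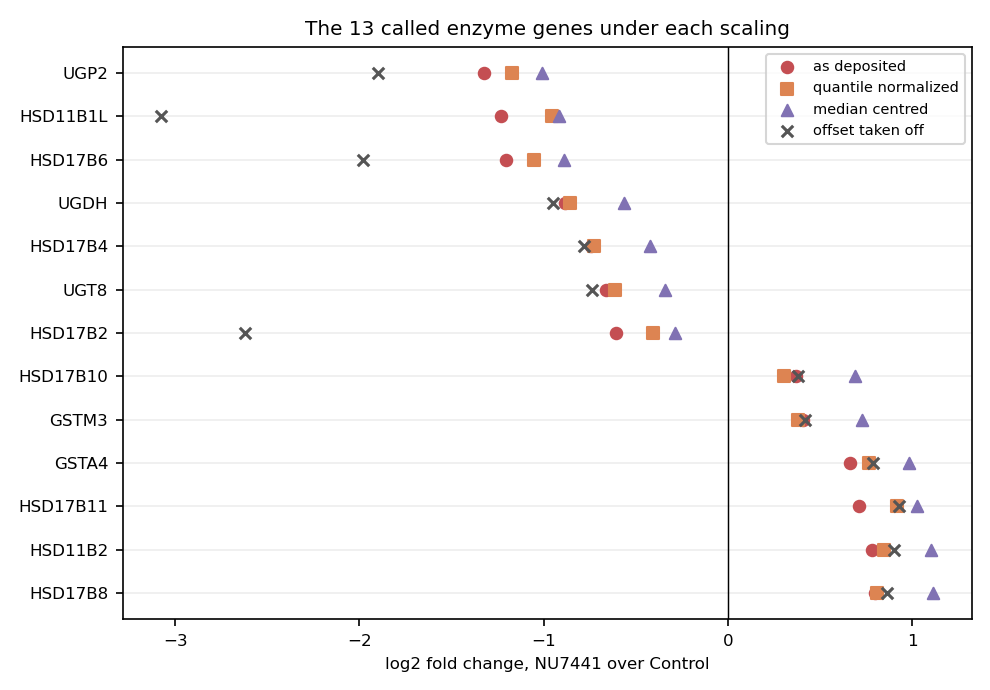
Log2 fold changes of the 13 called genes for NU7441 against control (horizontal axis) under 4 scalings (as deposited, quantile normalized, median centred, offset removed), one row per gene. Every gene stays on its side of 0, and HSD11B1L and HSD17B2, which lie near 16 with NU7441, move farthest from 0 when the offset is removed, a scaling that applies only if 16 was added to every value.

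Knockdown cells were compared with control cells to see the response to depletion of DNA-PKcs. GSTA1, an alpha class transferase known from liver and steroid-producing tissue, which also isomerises ketosteroids, rose 2.65-fold. It was the 1 gene of 33 called higher, with 0 called lower (3.03% called, against 0.77% of all genes, 0.284% higher and 0.486% lower), and at an unadjusted p under 0.05 limma had 6 higher and 3 lower. GSTA1 had 184 and 202 in knockdown cells and 71.1 and 74.6 in control cells, a log2 fold change of 1.40 ± 0.20 (limma adjusted p = 0.0305). It had 63.4 and 56.1 in NU7441 cells, below control (−0.29 ± 0.20, limma adjusted p = 0.288), although median centring turned that difference to 0.03. The median log2 fold change of the 33 genes after knockdown was 0.03, against −0.09 over all genes. The direction of GSTA1 held in all 14 alternative settings, while its call was lost in 6 of them. These were the offset taken off (limma adjusted p = 0.0809), no mean-variance trend (limma adjusted p = 0.0628), and leaving out any 1 of the 4 knockdown or control arrays. The NU7441 arrays enter this comparison only through the shared spread. With the compared groups alone, 6 of the 33 genes were called higher and 4 lower, where 1021 and 1822 of all 14812 genes were.

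GSTA2 and GSTA1 are next to each other in the gene table, in a run with GSTA5, GSTA3 and GSTA4. The promoter windows of GSTA1 (chr6:52803767-52804066) and GSTA2 (chr6:52763426-52763725), both on the minus strand of GRCh38.p14 in RefSeq, are shown because they are nearly the same. They are aligned without gaps, with capitals at the 12 of 300 positions where they differ.
GSTA1: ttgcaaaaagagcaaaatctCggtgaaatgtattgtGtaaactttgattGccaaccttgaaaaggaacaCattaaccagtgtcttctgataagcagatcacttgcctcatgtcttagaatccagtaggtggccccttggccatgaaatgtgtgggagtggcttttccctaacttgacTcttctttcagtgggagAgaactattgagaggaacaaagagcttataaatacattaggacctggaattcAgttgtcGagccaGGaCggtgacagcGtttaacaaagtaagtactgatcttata
GSTA2: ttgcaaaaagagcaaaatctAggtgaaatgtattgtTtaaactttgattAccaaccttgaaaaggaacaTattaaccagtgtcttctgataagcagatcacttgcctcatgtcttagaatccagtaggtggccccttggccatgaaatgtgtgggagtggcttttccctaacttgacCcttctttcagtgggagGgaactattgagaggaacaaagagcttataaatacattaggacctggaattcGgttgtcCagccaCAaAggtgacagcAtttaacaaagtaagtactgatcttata
The windows were identical at 288 of 300 positions (96.0%), whereas the windows of the other GSTA pairs had identities of 45.7% to 51.8%. None of the 3 motifs searched was in either window. GSTA2 had 31.2 and 37.7 in knockdown cells and 21.5 and 20.3 in control cells (0.72 ± 0.19, limma adjusted p = 0.0924), with 20.3 and 17.6 in NU7441 cells. Whether its probes read GSTA1 was not tested. GSTA4 at the end of the run was at 0.78 ± 0.20 (limma adjusted p = 0.0858), and GSTA3 and GSTA5 between them at −0.60 ± 0.18 and −0.07 ± 0.24 (limma adjusted p = 0.127 and 0.905), with GSTA3 close to 16.

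Hepatocyte markers were followed beside GSTA1 because it is a liver gene. Of 10 measured markers of 11 listed, 1 was higher after knockdown, TTR (316 and 371 in knockdown cells, 181 and 184 in control cells), and 0 were lower (limma, with 2 higher and 1 lower at an unadjusted p under 0.05). ALB was at 36.8 and 44.8 in knockdown cells and 63.0 and 61.2 in control cells. The summed intensity of the list was 389 and 390 in NU7441 cells, 617 and 671 in knockdown cells and 502 and 517 in control cells, and 3 of the 10 lay above the probeset median on all arrays. Without TTR the sum was 268 and 277 in NU7441 cells, 301 and 300.2 in knockdown cells and 321 and 332 in control cells, so the higher sum after knockdown was that of TTR. The part of such expression in the rise of GSTA1 was not tested.

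HSD17B10 (0.46 ± 0.10, limma adjusted p = 0.0664), GSTM3 (0.35 ± 0.09, adjusted p = 0.0940) and HSD17B8 (0.56 ± 0.16, adjusted p = 0.108) were above control on both knockdown arrays but did not pass. After median centring, 6 of the 33 genes were called higher: these 3 with GSTA1, GSTA2 and GSTA4. Of all 14812 genes, 345 were then called higher, in place of 42. HSD17B4 had the lowest fold change of the set after knockdown (−0.60 ± 0.21, limma adjusted p = 0.174). UGP2 and UGDH were at −0.18 ± 0.29 and −0.21 ± 0.15, and UGT8 was at 0.32 ± 0.16 (limma adjusted p from 0.311 to 0.777).

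DNA-PKcs knockdown was also compared with NU7441 directly. These groups differ in time (96 h and 24 h) and in transfection as well as in loss or inhibition of DNA-PKcs, and these differences cannot be told apart. GSTA1, UGP2, UGT8, GSTA2 and UGDH were higher in knockdown cells, 5 of 33 genes (15.2%, against 5.83% of all genes called higher and 8.67% called in either direction). None of the 33 was called lower in limma's test, with 3 lower at an unadjusted p under 0.05 (2.84% of all genes were called lower). GSTA1 differed by 1.69 ± 0.20 on the log2 scale, 3.23-fold (limma adjusted p = 0.00279), and GSTA2 by 0.86 ± 0.19 (adjusted p = 0.0271). GSTA2 lay near 16 in NU7441 cells, and its difference was 2.36 with the call lost when the offset was removed (adjusted p = 0.0613). Its call held in 8 of 14 alternative settings, and those of UGP2 and UGDH in 7 of 14 each. All 3 UDP-sugar and UGT8 genes differed, UGP2 by 1.15 ± 0.29 (2.21-fold, adjusted p = 0.0429), UGT8 by 0.98 ± 0.16 (adjusted p = 0.00999) and UGDH by 0.67 ± 0.15 (adjusted p = 0.0274). The NU7441 arrays that carry these low values also set the comparison with control, so the 2 results are not independent.

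Of the 14 dehydrogenases 0 passed between the treatments in limma's test, with 3 higher and 1 lower at an unadjusted p under 0.05. HSD17B6 was at 1.03 ± 0.39 (limma adjusted p = 0.125) and HSD11B1L at 0.90 ± 0.27 (adjusted p = 0.0694), both higher on the 2 knockdown arrays. HSD11B2 was at −0.57 ± 0.23 (adjusted p = 0.142) and GSTT2B at −1.14 ± 0.35 (adjusted p = 0.0745), and GSTT2B passed after quantile normalization (adjusted p = 0.0413). The pseudogene GSTT2, left out of the set, was at 0.24 ± 0.31 (limma adjusted p = 0.644). GSTA4, GSTM3 and HSD17B10 differed between the treatments by 0.12 ± 0.20, −0.05 ± 0.09 and 0.09 ± 0.10. The 5 calls rested on both knockdown arrays, since all were lost without replicate 1 and without replicate 2. Most were also lost without control replicate 1 or 2, which enter only through the shared spread. All 5 genes kept their direction when any 1 array was left out.

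Genes that supply or regulate these enzymes were followed as 6 further lists. With NU7441, 37 of 82 measured genes passed, where 33.2% of all genes did. Of 11 genes for electron donors and cofactor supply 3 were higher and 2 lower, with CYB5R3, a cytochrome b5 reductase, highest (1.02 ± 0.17) and CYB5B, a mitochondrial cytochrome b5, lowest (−1.42 ± 0.22, limma adjusted p = 0.00251). CYB5B had 88.0 and 144 in NU7441 cells, 240.1 and 244 in knockdown cells and 295 and 308 in control cells. Of 22 other phase I enzymes 2 were higher and 6 lower. RDH11, a retinol dehydrogenase of prostate epithelium, had 908 and 944 in NU7441 cells, 387 and 386 in knockdown cells and 311 and 277 in control cells (1.66 ± 0.12 with NU7441, limma adjusted p = 1.39e-04). FMO1, a flavin monooxygenase, was lowest at −2.03 ± 0.62, with 22.2 and 129 in NU7441 cells, 231 and 169 in knockdown cells and 227 and 209 in control cells.

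Of 17 other conjugation enzymes and cofactor genes 5 were higher and 5 lower, between AHCY, which clears the product of methylation (0.96 ± 0.16), and GLYATL1, an acyltransferase (−1.25 ± 0.29). The 2 enzymes of glutathione supply measured moved apart, which was chosen for mention after their values were seen. GSS, the synthetase, had 396 and 325 in NU7441 cells, 242 and 236 in knockdown cells and 190 and 181 in control cells (0.95 ± 0.16 with NU7441), and GSR, the reductase, had 256 and 475 in NU7441 cells, 436 and 474 in knockdown cells and 766 and 710 in control cells (−1.08 ± 0.23). Of 20 genes of the NRF2 pathway, which induces many of these enzymes under oxidative stress, 7 were higher and 5 lower. SQSTM1, an autophagy receptor, was highest (0.98 ± 0.14), and NFE2L2, which encodes NRF2 itself, lowest, with 48.1 and 78.4 in NU7441 cells, 110 and 87.8 in knockdown cells and 153 and 149.9 in control cells (−1.30 ± 0.26, limma adjusted p = 0.00698). Of 13 sensing receptors and their cofactors 3 were higher and 1 lower, with AHR, the aryl hydrocarbon receptor, at 0.86 ± 0.29 (adjusted p = 0.0439) and ESR2 at −0.54 ± 0.17, a call lost after quantile normalization (adjusted p = 0.358). Neither of 2 measured carriers passed, SLC51A and SLC51B, with 0 also at an unadjusted p under 0.05 in limma.

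**Figure D4:**
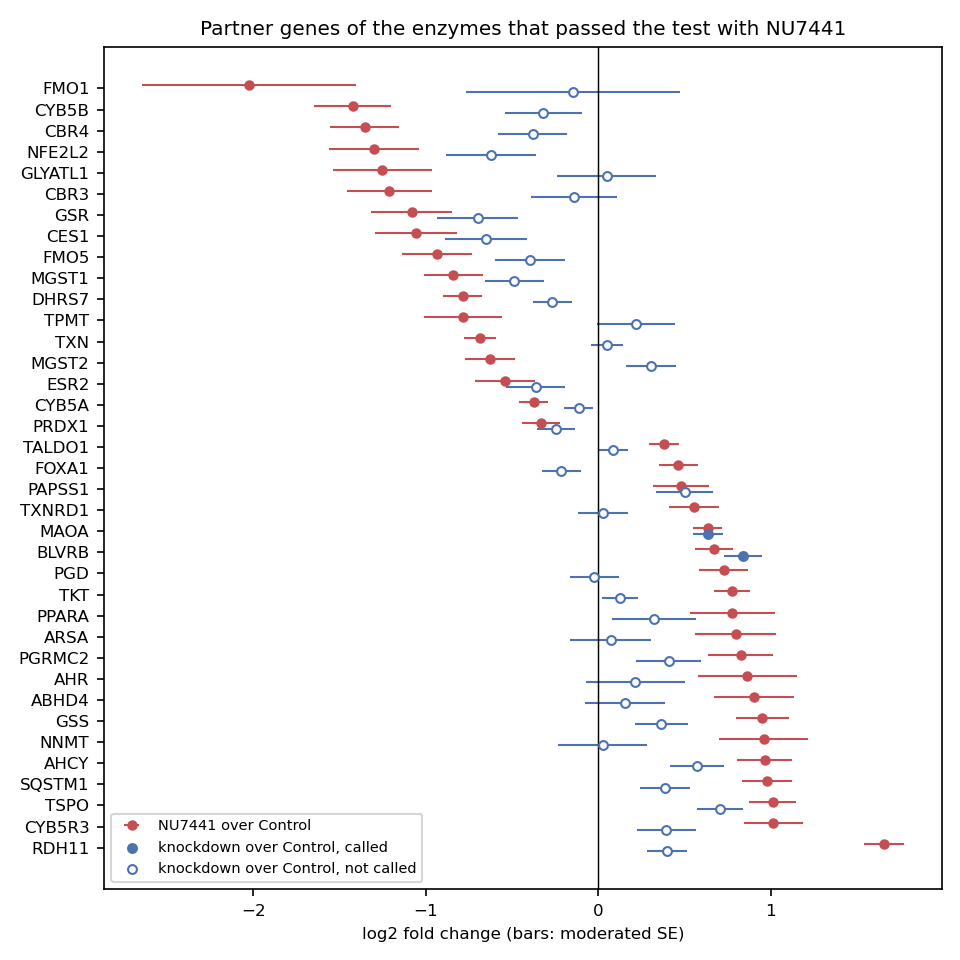
Log2 fold changes of the 37 partner genes that passed the test with NU7441 (red, upper point of each row), with the same genes after knockdown against control (blue, filled where called), bars of 1 moderated standard error. RDH11 is highest and FMO1 lowest with NU7441, and MAOA and BLVRB are the 2 filled for knockdown. Both comparisons use the same 2 control arrays.

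After knockdown 2 of the 82 partner genes passed, both higher, where 0.284% of all genes were called higher and 0.77% in either direction. MAOA, a mitochondrial monoamine oxidase, had 1139 and 1221 in knockdown cells and 784 and 732 in control cells (0.64 ± 0.09, limma adjusted p = 0.0254), and 1213 and 1139 in NU7441 cells. BLVRB, a biliverdin reductase, had 986 and 979.9 in knockdown cells and 514 and 589 in control cells (0.84 ± 0.11, limma adjusted p = 0.0225), and 945 and 814 in NU7441 cells. Both were above control on all 4 treated arrays.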

How the data were processed

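The 6 arrays carried amplified, biotin-labelled cDNA from Trizol-extracted RNA, per the labels' protocols. The authors deposited linear intensities per probeset; how they were summarised and scaled is not given in the sources used here. They were log2 transformed without further scaling.

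Of 44629 probesets 15835 had 1 gene symbol in the platform table, 0 had several and 28794 were unnamed here. The brightest probeset stood for each of 651 genes with more than 1. GSTT2, a pseudogene in the GRCh38.p14 gene table, was left out. One limma model (limma 3.58.1, R 4.3.3) over 6 arrays, with 3 residual degrees of freedom, empirical Bayes moderation and a mean-variance trend, gave two-sided p-values with Benjamini-Hochberg adjustment over 14812 genes (threshold 0.05). The number of arrays limits the precision (median SE 0.22, log2). The labels do not name separate cultures, so p-values measure the spread between these samples, which may be technical. In simulation of NU7441 against control (14812 genes, 200 changed) 56% of 2-fold and 98% of 3-fold changes were recovered, and 7.69% of calls were false. The simulation gave all groups the same spread for each gene. In the data the median spread was 0.21 for NU7441 and 0.09 for control, and 33.2% of genes were called. Its rates therefore need not hold for this comparison.

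Members and lists were chosen with earlier results of these data known. Named were called members, the 2 brightest of each family in control, HSD17B4 and GSTP1, and the highest and lowest called gene of each further list; other members named were chosen after their values were seen. Promoters came from RefSeq. Alternatives were quantile normalization, median centring, removal of the offset, no trend, the compared groups alone, a filter on dim genes, the mean of probesets, a replicate block and leaving out each array.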

Additional observations from a re-analysis of the deposited data

How the results depend on the processing

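The 13 calls for NU7441 against control, 1 for knockdown against control and 5 for knockdown against NU7441 kept their direction in all 14 alternatives that could be fitted for each; HSD17B2 has 13, since the filter on dim genes, which left 11665 genes and 25 of the 33, removed it. Among all 33 genes, directions differed under quantile normalization, median centring and removal of the offset for 8, 11 and 0 genes with NU7441, 3, 3 and 1 after knockdown, and 3, 7 and 0 between the treatments, and 0 of these were called as deposited. Among the named ones, quantile normalization and median centring turned NU7441 against control to 0.12 and 0.18 for GSTA2 and to 0.18 and 0.19 for GSTP1, and knockdown against control to 0.0748 and 0.0814 for HSD17B2. Median centring turned GSTA1 with NU7441 to 0.0306, and knockdown against NU7441 to −0.023 for GSTA4, −0.0536 for HSD17B10 and −0.0032 for HSD17B4. Leaving out 1 array gave −0.37 to 0.12 for GSTP1 with NU7441, −0.10 to 0.34 for GSTP1, −0.0765 to 0.49 for HSD11B2 and −0.24 to 0.055 for HSD17B2 after knockdown, and −0.20 to 0.0558 for GSTM1, −0.0028 to 0.49 for GSTP1 and −0.19 to 0.47 for HSD17B4 between the treatments.

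For NU7441 against control, the 7 members and 3312 genes called lower became 3 and 1413 with median centring, which called 2983 genes higher in place of 1605, and 2037 were lower with quantile normalization. Lower genes were 67.4% of calls as deposited, 49.0% after quantile normalization and 32.1% after median centring, and the median of all genes moved from −0.23 to 0.01 and 0.08. For knockdown against control, 42 genes were called higher and 72 lower. These counts became 73 and 126 with quantile normalization, 345 higher with median centring, 3 and 4 after removal of the offset, 0 and 4 without the trend, 1021 and 1822 with the compared groups alone, and 65 and 115 with dim genes left out. Members called higher after knockdown became 6 with median centring, 0 after removal of the offset, 0 without the trend and 6 with the compared groups alone, which called 4 lower. For knockdown against NU7441, 421 genes lower became 908 with median centring, 228 without the trend and 187 with the compared groups alone, which called 285 higher in place of 863. Members called higher became 3 after removal of the offset, 3 without the trend and 2 with the compared groups alone, and 1 was lower with quantile normalization and 1 with median centring. The 6 members called higher with NU7441 became 8 with median centring. The median standard deviation between arrays of a group was 0.21 for NU7441, 0.14 for knockdown and 0.09 for control (log2). With the compared groups alone, the median SE was 0.18 for knockdown against control, in place of 0.22. It was 0.27 for knockdown against NU7441. The compared groups alone also rest on fewer samples. The cause of these shifts was not tested.

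With 1 array left out, the group with 1 array was assumed to vary like the others. Higher and lower calls then ranged from 348 to 2433 and 520 to 5412 genes, and 0 to 7 and 0 to 9 members, for NU7441 against control. They ranged from 0 to 1060 and 1 to 1827 genes, and 0 to 6 and 0 to 4 members, for knockdown against control, and from 0 to 3419 and 0 to 1682 genes, and 0 to 10 and 0 to 3 members, for knockdown against NU7441. The replicate numbers did not pair the samples: deviations of same-numbered arrays correlated at −0.01, −0.01 and −0.07 over genes for the 3 pairs of groups. With the replicate block, knockdown against control had 20 genes higher and 17 lower. The block kept 12 of 13, 1 of 1 and 5 of 5 member calls, HSD17B11 with NU7441 being the one lost.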
